A study of Mus musculus with 6 samples.

Results

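Cells of injured muscle collected at 2 clock times, 1 day after cardiotoxin, are compared here, ZT16 against ZT4, in 3 sets of cell barcodes defined by which of 3 genes they carried. The day 1 ZT16 and day 1 ZT4 libraries are 2 of the 6 libraries of the study. Both came from wildtype mice whose tibialis anterior, a shin muscle, had been injured with cardiotoxin, a snake venom toxin that destroys muscle fibres. Mononucleated cells of both hindlimbs were sorted without propidium iodide, a dye that enters dead cells, and captured with 10x Chromium Next GEM 3′ v3.1 chemistry. Zeitgeber time (ZT) counts hours from lights on, so ZT4 lies in the light phase and ZT16 in the dark phase. The other libraries are uninjured muscle (day 0) and day 3 after cardiotoxin, each at ZT16 and ZT4. Each group is 1 library, and the number, age and sex of the animals behind it and the hour of injury are not given in the sources used here. No difference below therefore has a replicate check or a p-value, and a difference between the clock times cannot be told apart from a difference between these 2 captures. Each ratio of UMI sums (UMIs are counted transcript molecules) carries an exact 95% interval that covers counting error only.

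The circadian clock runs in nearly every cell of the body. The activators Bmal1 (gene Arntl) and Clock switch on Per and Cry genes, whose proteins then repress the activators. The receptors Nr1d1 and Nr1d2 form an interlocked loop, and Dbp is a direct output of the activators. Mice are active in the dark phase, when their glucocorticoid level is high. In muscle 1 day after cardiotoxin, neutrophils and incoming Ly6c2-positive monocytes make up most of the infiltrate, and monocytes are turning into macrophages. The receptor for granulocyte colony-stimulating factor, Csf3r, is carried by neutrophils, and Csf1r by monocytes and macrophages. Ptprc encodes CD45, a surface protein of immune cells.

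The day 1 ZT16 library held 11493 barcodes with 96690582 UMIs, and the ZT4 library held 11235 barcodes with 72747703 UMIs. Barcodes were kept with at least 500 UMIs, at least 200 genes and at most 10% mitochondrial UMIs, which left 11233 at ZT16 and 10984 at ZT4. Their median UMI count was 5879 at ZT16 and 3905 at ZT4, so the ZT16 library was the deeper. The Csf3r set (Csf3r at least 1 UMI, Csf1r at 0) held 2954 barcodes at ZT16 and 3222 at ZT4. In the Csf1r set (Csf1r at least 1, Csf3r at 0) there were 3731 at ZT16 and 3410 at ZT4. The Ptprc-zero set (Ptprc at 0) held 2393 at ZT16 and 1828 at ZT4. It overlaps the other sets, since 28.4% of it at ZT16 and 34.4% at ZT4 also carried Csf3r or Csf1r alone. Barcodes with both receptor genes numbered 2374 at ZT16 and 2273 at ZT4. In no set were 25.2% of kept barcodes at ZT16 and 28.7% at ZT4. A total of 48 barcodes occur in both libraries, which is 0.418% of the ZT16 library and 0.427% of the ZT4 library. Free RNA was estimated, from neutrophil transcripts in non-immune barcodes, at 1.04% of UMIs at ZT16 and 0.627% at ZT4.

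Marker genes of the Csf3r set were those of neutrophils and of the Csf1r set those of monocytes and macrophages. In the Csf3r set 10 neutrophil markers summed to 58665 CPM (UMIs scaled to the same total in every set and library) at ZT16 and 65413 CPM at ZT4, with none at 0. The 11 monocyte-macrophage markers summed to 15720 CPM at ZT16 and 16584 CPM at ZT4 in the Csf1r set. The Ptprc-zero set was a mixture. Fibre genes summed to 7308 CPM at ZT16 and 8381 CPM at ZT4, fibro-adipogenic markers to 1666 CPM at ZT16 and 2781 CPM at ZT4, and endothelial markers to 946 CPM at ZT16 and 769 CPM at ZT4. Neutrophil markers summed to 3945 CPM at ZT16 and 7808 CPM at ZT4 in it, and monocyte-macrophage markers to 6298 CPM at ZT16 and 6104 CPM at ZT4. It is therefore called by its rule. Myogenic markers, the cells that the tissue label names, summed there to only 71.8 CPM at ZT16 and 50.8 CPM at ZT4.

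A gene was measured in a set when both libraries together held at least 100 UMIs of it there, and counted as shifted when its CPM ratio was at least 1.5-fold (0.585 on the log2 scale) either way. In the Csf3r set 389 of 7924 measured genes (4.91%) were higher at ZT16 and 370 (4.67%) lower. The Csf1r set had 441 of 10587 (4.17%) higher and 663 (6.26%) lower. In the Ptprc-zero set 468 of 10262 (4.56%) were higher and 767 (7.47%) lower, which makes 37.9% of its shifted genes higher. That split turned to 53.7% higher when each barcode was thinned to 1000 UMIs and to 56.6% when every barcode was given equal weight. Of the 7539 genes measured in all 3 sets, 74 (0.982%) were higher at ZT16 in all 3 and 68 (0.902%) lower in all 3. With every barcode thinned to 1000 UMIs, which leaves far fewer UMIs, these counts were 21 and 44, with 12 and 27 genes in common with the unthinned groups. Of the genes shifted in 1 set alone, described below, 10 of 151 in the Csf3r set, 1 of 55 in the Csf1r set and 3 of 91 in the Ptprc-zero set were called again after thinning, with 3171 genes measured. The median gene lay at 0.02, -0.02 and -0.03 log2 in the Csf3r, Csf1r and Ptprc-zero sets.

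**Figure D1:**
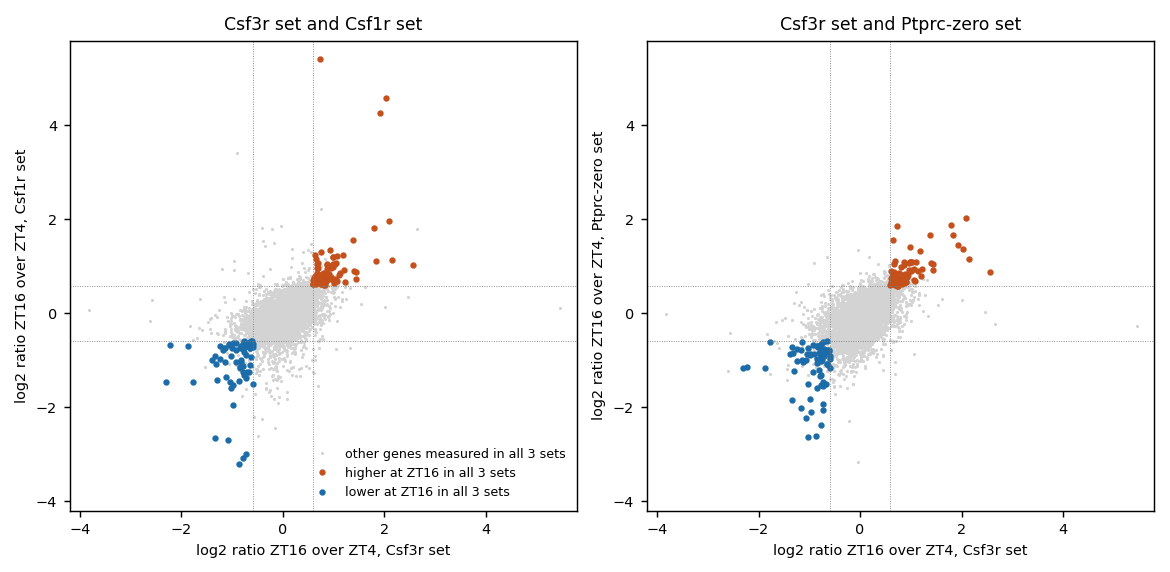
Each dot is a gene measured in all 3 sets; the horizontal axis gives its log2 ratio (ZT16 over ZT4) in the Csf3r set and the vertical axis that in the Csf1r set (left) or the Ptprc-zero set (right), with dotted lines at 1.5-fold. Orange dots are the 74 genes higher at ZT16 in all 3 sets and blue dots the 68 lower in all 3, and most other genes lie between the dotted lines.

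Genes higher at ZT16 in all 3 sets included a monocyte-attracting chemokine, an mRNA-destabilising protein, an annexin and an apolipoprotein. Ccl2, the chemokine ligand of the monocyte receptor Ccr2, had 467 CPM at ZT16 and 255 CPM at ZT4 in the Csf3r set, 3529 CPM at ZT16 and 1831 CPM at ZT4 in the Csf1r set and 2523 CPM at ZT16 and 1232 CPM at ZT4 in the Ptprc-zero set. Its log2 ratios were 0.87 (95% interval 0.80 to 0.95), 0.95 (95% interval 0.93 to 0.96) and 1.03 (95% interval 1.00 to 1.06). In the Csf3r set at ZT16 a single barcode held 33.4% of the Ccl2 UMIs, whereas in the Csf1r set at ZT16 the top barcode held 0.599%. The call of Ccl2 in the Csf3r set thus leans on 1 barcode, which its interval does not cover. A ratio without that barcode was not computed, so a shift of Ccl2 in all 3 sets is uncertain. Zfp36, which encodes tristetraprolin and speeds the decay of Tnf and other inflammatory mRNAs, had 1359.8 CPM at ZT16 and 722 CPM at ZT4 in the Csf3r set, 616 CPM at ZT16 and 306 CPM at ZT4 in the Csf1r set and 475 CPM at ZT16 and 301 CPM at ZT4 in the Ptprc-zero set. Anxa1, a mediator of the resolution of inflammation that glucocorticoids induce, had 341 CPM at ZT16 and 214 CPM at ZT4, 378 CPM at ZT16 and 195 CPM at ZT4 and 276 CPM at ZT16 and 152 CPM at ZT4 in the same order of sets. For Apoe, a lipid carrier secreted by macrophages, the levels were 451 CPM at ZT16 and 287 CPM at ZT4, 4206 CPM at ZT16 and 2548 CPM at ZT4 and 2096 CPM at ZT16 and 1258 CPM at ZT4. The part of macrophage transcripts in the Apoe ratios of the Csf3r and Ptprc-zero sets was not tested. The order of the sets differed by gene, Ccl2 and Apoe being highest in the Csf1r set and Zfp36 in the Csf3r set, but the ZT16 level was the higher one in each.

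**Figure D2:**
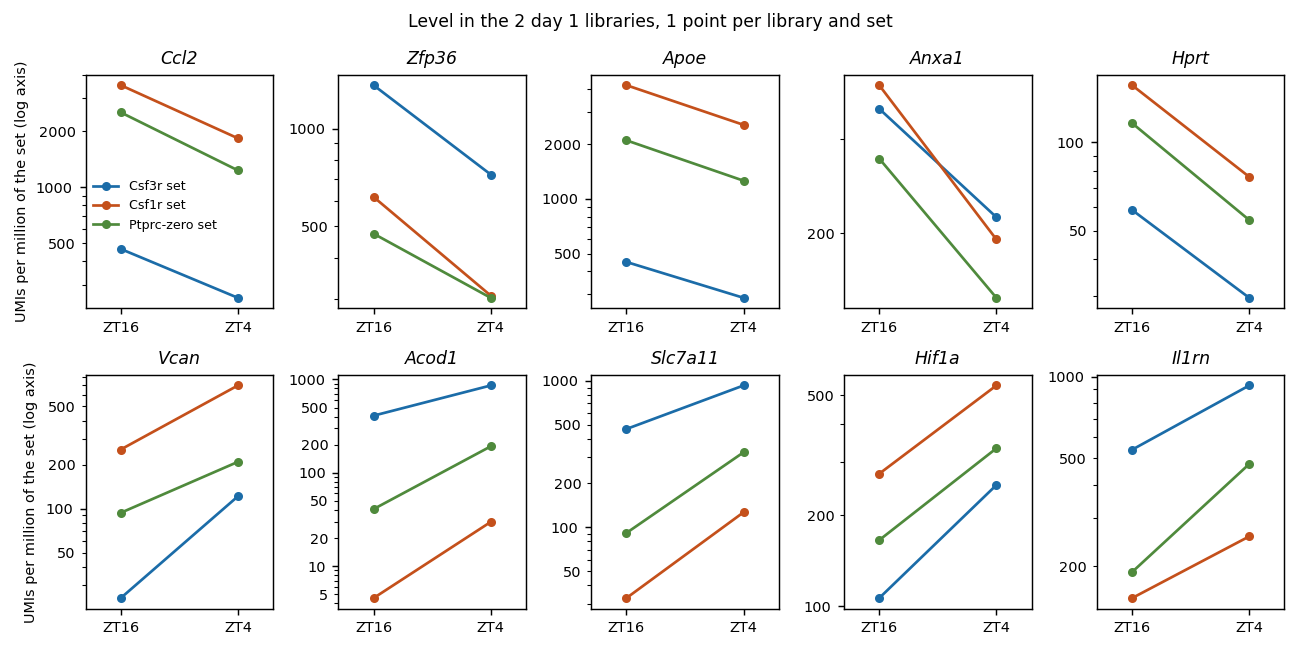
Level of 10 genes (vertical log axis, CPM) in the day 1 ZT16 library (left) and the ZT4 library (right), 1 point per library and set. The upper 5 genes are higher at ZT16 in each set and the lower 5 are lower at ZT16 in each set.

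The 15 genes that led the shared higher group by their interval were mostly not inflammatory genes. Gm47283, annotated on chromosome Y at chrY:90784738-90816464 (GRCm38, GENCODE vM21), had 32.1 CPM at ZT16 and 7.51 CPM at ZT4 in the Csf3r set. Its log2 ratios were 2.09, 1.97 and 2.02 in the Csf3r, Csf1r and Ptprc-zero sets. Whether its count holds reads from similar sequence elsewhere in the genome was not tested. Rpa3, the smallest subunit of the single-stranded DNA-binding protein RPA, followed with 1.79, 1.81 and 1.89. Hprt, an enzyme of purine salvage, had 157 CPM at ZT16 and 76.2 CPM at ZT4 in the Csf1r set and log2 ratios of 0.99, 1.04 and 1.10. The tubulin gene Tuba1b had 0.96, 0.95 and 0.91. Cdk1, the kinase that drives mitosis, had 9.69 CPM at ZT16 and 2.15 CPM at ZT4 in the Csf3r set, where 1 barcode held 46.4% of the ZT16 UMIs, and 27.1 CPM at ZT16 and 12.0 CPM at ZT4 in the Ptprc-zero set. Naa20 (an N-terminal acetyltransferase subunit), Sft2d1, Rps27rt, Hacd2 (a fatty acid elongation enzyme) and Cdk2ap1 had log2 ratios between 0.82 and 1.40. Rnaset2a, Rpl9-ps6 and Rps27rt have near-identical copies in the genome, so their counts are uncertain. The alpha-globin genes Hba-a1 and Hba-a2, near-identical too, had their UMIs in few barcodes: at ZT16 the top 5 barcodes of each set held 97.4% to 99.8% of them, and after thinning Hba-a1 had a log2 ratio of -0.38 and Hba-a2 of -0.48 in the Csf3r set. Without likely doublets Hba-a1 had -2.47 and Hba-a2 -2.87 in the Ptprc-zero set, and in the barcodes outside all sets Hba-a1 had -2.75 and Hba-a2 -2.95, so no direction is drawn for them.

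**Figure D3:**
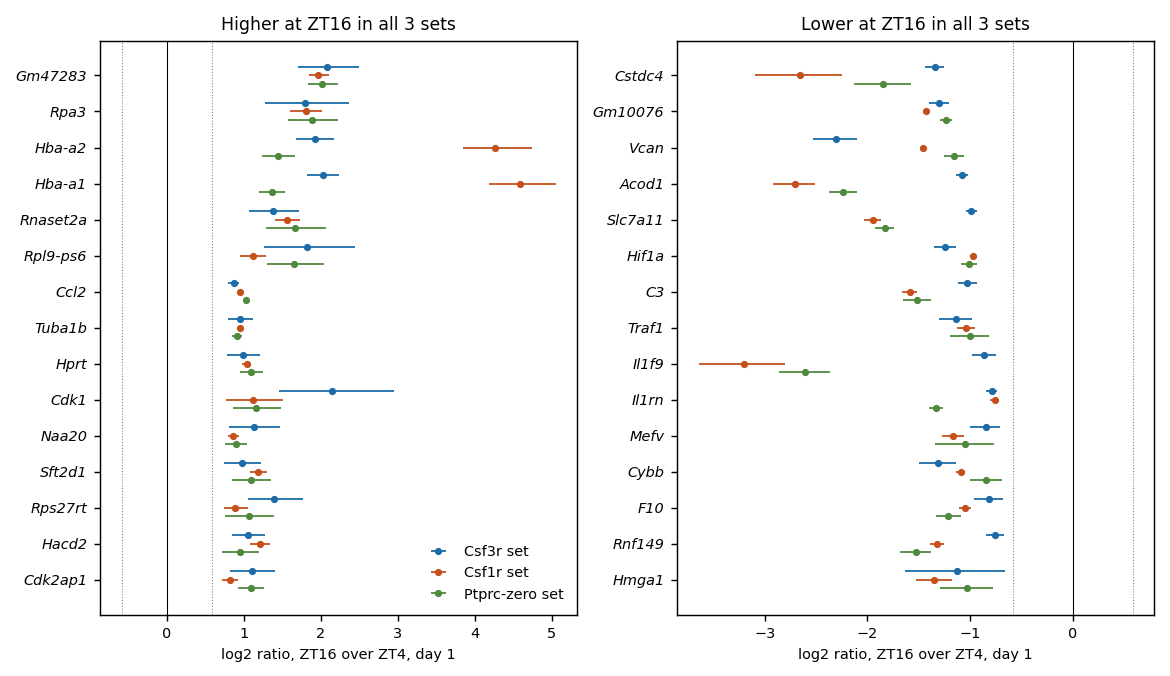
Log2 ratio, ZT16 over ZT4 on day 1 (horizontal axis), of the 15 genes leading the shared higher group (left) and the 15 leading the shared lower group (right) in the 3 sets; bars are exact 95% intervals for counting error only and dotted lines mark 1.5-fold. Gm47283 and Rpa3 have nearly the same ratio in each set, while Acod1 and Il1f9 differ between sets.

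Acod1, Vcan and Hif1a were among the 15 genes that led the group lower at ZT16 in all 3 sets. Acod1, the enzyme that makes itaconate in activated myeloid cells, had 409 CPM at ZT16 and 862 CPM at ZT4 in the Csf3r set, 4.54 CPM at ZT16 and 29.7 CPM at ZT4 in the Csf1r set and 40.8 CPM at ZT16 and 192 CPM at ZT4 in the Ptprc-zero set. Its log2 ratios were -1.08 (95% interval -1.13 to -1.02), -2.71 (95% interval -2.92 to -2.51) and -2.23 (95% interval -2.37 to -2.10). Vcan, a matrix proteoglycan that incoming monocytes carry, had 24.4 CPM at ZT16 and 121 CPM at ZT4, 253 CPM at ZT16 and 695 CPM at ZT4 and 93.6 CPM at ZT16 and 209 CPM at ZT4 in the same order. Hif1a, the oxygen-regulated transcription factor, had 106 CPM at ZT16 and 252 CPM at ZT4, 275 CPM at ZT16 and 538 CPM at ZT4 and 166 CPM at ZT16 and 333 CPM at ZT4. All 3 genes were lower at ZT16 in every set, with the largest ratio of Acod1 in the Csf1r set and that of Vcan in the Csf3r set. Neutrophil markers summed to 585 CPM at ZT16 and 1304 CPM at ZT4 in the Csf1r set. In the Ptprc-zero set they summed to 3945 CPM at ZT16 and 7808 CPM at ZT4. Monocyte-macrophage markers summed to 3029 CPM at ZT16 and 4183 CPM at ZT4 in the Csf3r set. The part of such admixed transcripts in the size of these ratios was not tested.

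The same 15 held Il1f9 and Il1rn, of the interleukin-1 family. Il1f9, which encodes interleukin-36 gamma, had 107 CPM at ZT16 and 195 CPM at ZT4 in the Csf3r set and log2 ratios of -0.86, -3.20 and -2.60. The part of neutrophil transcripts in its ratios in the Csf1r and Ptprc-zero sets was not tested. Il1rn, the antagonist of the interleukin-1 receptor, had 538 CPM at ZT16 and 929 CPM at ZT4, 152 CPM at ZT16 and 257 CPM at ZT4 and 189.9 CPM at ZT16 and 476 CPM at ZT4 in the Csf3r, Csf1r and Ptprc-zero sets. Il1b, which encodes interleukin-1 beta, had 16321 CPM at ZT16 and 13419.7 CPM at ZT4 in the Csf3r set, with log2 ratios of 0.28, -0.33 and -0.55 in the 3 sets, all under 1.5-fold.

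Further shared lower genes were the complement component C3 (-1.03, -1.59 and -1.51 log2 in the Csf3r, Csf1r and Ptprc-zero sets), the TNF receptor adaptor Traf1 (-1.14 in the Csf3r set and -1.04 in the Csf1r set) and Mefv, which encodes the inflammasome sensor pyrin (-0.85, -1.17, -1.05). Cybb, the catalytic subunit of the phagocyte NADPH oxidase, had 40.9 CPM at ZT16 and 102 CPM at ZT4, 142 CPM at ZT16 and 303 CPM at ZT4 and 41.8 CPM at ZT16 and 75.2 CPM at ZT4 in the same order. The coagulation factor gene F10, the ubiquitin ligase gene Rnf149 and the chromatin gene Hmga1 had log2 ratios between -1.53 and -0.76. The costimulatory gene Cd86 had -0.81, -0.72 and -0.84, and Eno1, a glycolytic enolase, -0.83, -0.70 and -0.73. Cstdc4 belongs to a family of near-identical stefin A genes and is uncertain for that reason. Gm10076, annotated as a long non-coding RNA, had 267 CPM at ZT16 and 719 CPM at ZT4 in the Csf1r set.

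Slc7a11 was lower at ZT16 together with other genes of glutathione and thioredoxin metabolism. Slc7a11, the cystine importer that feeds glutathione synthesis, had 468 CPM at ZT16 and 929 CPM at ZT4 in the Csf3r set, 32.8 CPM at ZT16 and 126 CPM at ZT4 in the Csf1r set and 91.2 CPM at ZT16 and 325 CPM at ZT4 in the Ptprc-zero set. Its log2 ratios were -0.99 (95% interval -1.04 to -0.94), -1.95 (95% interval -2.03 to -1.87) and -1.83 (95% interval -1.93 to -1.74). The part of neutrophil transcripts in its ratios in the Csf1r and Ptprc-zero sets was not tested. Txnrd1 (thioredoxin reductase) and Sqstm1 (an autophagy receptor) were also past the fold in all 3 sets, Txnrd1 with 139.8 CPM at ZT16 and 290.0 CPM at ZT4 and Sqstm1 with 132 CPM at ZT16 and 278 CPM at ZT4 in the Csf3r set. Of a list of 14 metallothionein and antioxidant genes, 11 were measured in the Csf3r set, and 6 of these were lower past the fold (4.67% of all measured genes) and 0 higher (median -0.63 log2, against 0.02 over all genes). The 6 were Slc7a11, Txnrd1, Srxn1 (sulfiredoxin, -1.15), Gclm and Gclc (the subunits of glutamate-cysteine ligase, -0.97 and -0.88) and Hmox1 (haem oxygenase, -0.63). In the Csf1r set 2 of 13 were lower (6.26% of all measured genes) and in the Ptprc-zero set 3 of 13 (7.47%), with 0 higher in either.

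Several of these genes are textbook targets of the transcription factor Nrf2, which binds antioxidant response elements, so the promoters of Slc7a11, Gclm and Srxn1 are shown with the core of that element in capitals. The letters searched on both strands were TGACNNNGC and TGAGNNNGC. Each run covers 250 bases before to 50 after the gene's start in the RefSeq table for GRCm38.p6, 5′ to 3′ along the gene's strand: Slc7a11 at chr3:50443564-50443863 on the minus strand, Gclm at chr3:122245307-122245606 on the plus strand and Srxn1 at chr2:152105274-152105573 on the plus strand.
Slc7a11: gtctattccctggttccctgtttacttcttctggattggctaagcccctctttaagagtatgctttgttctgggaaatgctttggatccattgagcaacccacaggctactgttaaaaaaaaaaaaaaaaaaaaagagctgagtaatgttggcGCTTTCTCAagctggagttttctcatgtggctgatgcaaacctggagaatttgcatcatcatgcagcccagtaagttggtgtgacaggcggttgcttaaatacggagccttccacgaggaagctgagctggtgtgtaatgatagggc
Gclm: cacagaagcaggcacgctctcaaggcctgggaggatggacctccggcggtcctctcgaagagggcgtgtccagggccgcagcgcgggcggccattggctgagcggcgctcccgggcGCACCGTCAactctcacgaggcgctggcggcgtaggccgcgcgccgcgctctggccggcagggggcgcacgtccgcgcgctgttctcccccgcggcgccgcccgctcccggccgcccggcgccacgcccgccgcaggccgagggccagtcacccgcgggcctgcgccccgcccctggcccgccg
Srxn1: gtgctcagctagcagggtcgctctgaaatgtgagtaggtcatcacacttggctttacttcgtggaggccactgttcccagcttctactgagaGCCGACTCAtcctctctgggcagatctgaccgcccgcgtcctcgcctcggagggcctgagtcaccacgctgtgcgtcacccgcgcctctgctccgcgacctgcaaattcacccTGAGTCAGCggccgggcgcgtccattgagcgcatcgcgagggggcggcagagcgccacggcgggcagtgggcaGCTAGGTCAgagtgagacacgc
The core occurred at 1 place in Slc7a11 (-97 from the start), 1 in Gclm (-134) and 3 in Srxn1 (-158, -45 and 28). Of the list, 12 genes had 14 promoters in the table, and 6 of the 14 held the core. Of all 32851 promoters of that length 27.8% held it, so the letters are common. A match is a description of the sequence, not evidence of binding.

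Some NF-kB targets and interferon-induced genes were lower at ZT16. Of 18 genes listed as NF-kB feedback and targets, 6, 3 and 8 were lower past the fold in the Csf3r, Csf1r and Ptprc-zero sets (4.67%, 6.26% and 7.47% of all measured genes), and 0 were higher. Read per barcode among 1000 drawn UMIs, the list had a median of 25 UMIs at ZT16 and 24 at ZT4 in the Csf3r set. As a whole it was thus not lower there. In the Csf1r set its median was 5 at ZT16 and 5 at ZT4, and its mean 7.79 at ZT16 and 8.62 at ZT4. In the Ptprc-zero set neutrophil markers were at 3945 CPM at ZT16 and 7808 CPM at ZT4, and their part was not tested. Tnfaip2 had 1082 CPM at ZT16 and 1717 CPM at ZT4, 60.7 CPM at ZT16 and 144 CPM at ZT4 and 114 CPM at ZT16 and 326 CPM at ZT4 in the 3 sets. Tnip1, a brake on NF-kB signalling, had log2 ratios of -0.77, -0.65 and -0.77. Icam1, an adhesion molecule, had -0.92 in the Csf3r set and -1.08 in the Ptprc-zero set. The NF-kB subunit genes Nfkb2 (-0.76) and Relb (-0.94) were past the fold in the Csf3r set. Of 20 interferon response genes, 19 were measured in each set. In the Csf3r, Csf1r and Ptprc-zero sets 3, 8 and 7 of these were lower (4.67%, 6.26% and 7.47% of all measured genes). Against these 1, 0 and 1 were higher (4.91%, 4.17% and 4.56%). Among 1000 drawn UMIs per barcode, this list had a median of 1 UMI at ZT16 and 1 at ZT4 in the Csf3r set. A median so near 0 cannot show a small difference, and the mean there was 2.54 at ZT16 and 2.79 at ZT4. Its median in the Csf1r set was 2 at ZT16 and 3 at ZT4. Rsad2, which encodes the antiviral protein viperin, had 81.5 CPM at ZT16 and 135 CPM at ZT4, 16.3 CPM at ZT16 and 42.4 CPM at ZT4 and 16.2 CPM at ZT16 and 61.5 CPM at ZT4. Oas1a, a sensor of double-stranded RNA, had log2 ratios of -1.02, -0.91 and -0.73. Ifit2 was lower in the Csf1r set (1.98 CPM at ZT16 and 5.97 CPM at ZT4). Bst2, which tethers budding viruses, went the other way in each set (0.47, 0.40 and 0.62 log2). It was past the fold only in the Ptprc-zero set, with 254 CPM at ZT16 and 166 CPM at ZT4.

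Barcodes in none of the 3 sets, which carry Ptprc and either both receptor genes or neither, took no part in choosing these genes, although they come from the same 2 libraries. There 73 of the 74 shared higher genes were measured, and 68 were higher at ZT16, 62 of them past 1.5-fold (6.20% of 10085 measured genes were higher past that fold). All 68 shared lower genes were measured, and 67 were lower, 58 past the fold (5.91% of measured genes). The median log2 ratio was 0.89 for the higher genes and -0.91 for the lower genes. A stricter subset of the Ptprc-zero barcodes is given as a description only, since its UMIs were part of the sums that chose the genes. Its barcodes lacked Ptprc, Csf3r and Csf1r and had at least 3 UMIs of markers of endothelial, mural, fibro-adipogenic and other non-immune cells (1054 barcodes at ZT16 and 629 at ZT4). In it the monocyte-macrophage markers summed to 89.5 CPM at ZT16 and 91.1 CPM at ZT4, fibro-adipogenic markers to 3164 CPM at ZT16 and 6008 CPM at ZT4, muscle fibre genes to 11229 CPM at ZT16 and 16625 CPM at ZT4 and erythroid markers to 352 CPM at ZT16 and 72.1 CPM at ZT4. The part of these markers in the values below was not tested. Of the 74 higher genes 69 were measured there, all 69 were higher and 49 passed the fold (3.33% of all genes measured). Of the 68 lower genes only 34 were measured, 32 were lower and 23 passed the fold (6.58%). Ccl2 had 1926 CPM at ZT16 and 914 CPM at ZT4 in this subset, Hif1a 108 CPM at ZT16 and 223 CPM at ZT4 and Vcan 65.1 CPM at ZT16 and 144 CPM at ZT4. Traf1 had a log2 ratio of 0.21 there, so its direction was not that of the whole Ptprc-zero set. Slc7a11, with 16 UMIs at ZT16 and 12 at ZT4, and Acod1, with 7 at ZT16 and 23 at ZT4, were not measured.

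The same genes were read on the other days, where the Csf3r set was too small for a count over all 3 sets: of the 74 higher genes 2 were measured in it on day 0 and 30 on day 3, and of the 68 lower genes 1 on day 0 and 21 on day 3. Past the fold in the same direction in all 3 sets were Gm47283 (higher) and Hist1h2ap, Gm10076 and mt-Nd4l (lower) on day 3. In the Csf1r set 5 of the 74 higher genes were higher past the fold on day 0 (3.86% of all genes measured) and 1 of 73 on day 3 (2.45%). Of the lower genes 3 of 49 were lower past the fold there on day 0 (3.16%) and 6 of 63 on day 3 (2.34%). In the Ptprc-zero set 4 of 73 higher genes passed on day 0 (5.16%) and 6 of 74 on day 3 (4.95%). Of the lower genes 5 of 50 passed there on day 0 (6.47%) and 5 of 54 on day 3 (1.09%).

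Some genes were past 1.5-fold in the Csf3r set and within 0.32 of 0 on the log2 scale in both other sets: 77 higher (1.02% of the 7539 genes) and 74 lower (0.982%). Ptgs2, which encodes the prostaglandin-forming enzyme cyclooxygenase 2, was the most abundant named one, with 2069.8 CPM at ZT16 and 1104 CPM at ZT4 in the Csf3r set and log2 ratios of 0.91 (95% interval 0.87 to 0.94) there, 0.04 in the Csf1r set and -0.02 in the Ptprc-zero set. Sirpb1b, a receptor of the signal-regulatory protein family, had 161 CPM at ZT16 and 84.2 CPM at ZT4, and the long non-coding RNA Gm12840 252 CPM at ZT16 and 143 CPM at ZT4. Pclaf, a PCNA-binding factor, had 20.1 CPM at ZT16 and 4.93 CPM at ZT4. Mettl7a1, Fbxo31 and Dipk1a had log2 ratios between 1.04 and 1.53. For Igkc, the immunoglobulin kappa constant gene, 4784 of the 4821 UMIs of the Csf3r set at ZT16 lay in 1 barcode, and with likely doublets left out its log2 ratio was -2.63. All 151 UMIs of Jchain at ZT16 also lay in 1 barcode. Of genes measured in the Csf3r set alone (120 genes), 18 (15%) were higher, among them Klf5, a transcription factor, with 11.6 CPM at ZT16 and 5.69 CPM at ZT4, Mctp2 with 33.1 CPM at ZT16 and 19.8 CPM at ZT4, and Fmo5 and Gm34680.

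Neutrophil genes of the lists also differed in the Csf3r set. The chemokine receptor Cxcr4, which rises as neutrophils age, had 943 CPM at ZT16 and 474 CPM at ZT4. Siglecf, a sialic acid-binding lectin, had 119.8 CPM at ZT16 and 69.9 CPM at ZT4 and the cytokine gene Osm 372 CPM at ZT16 and 216 CPM at ZT4. The alarmins S100a8 and S100a9 and the chemokine receptor Cxcr2 were within 1.5-fold, with 22524 CPM at ZT16 and 28375 CPM at ZT4 for S100a8 and 1459.6 CPM at ZT16 and 1179 CPM at ZT4 for Cxcr2. The chemokine gene Cxcl3 had 59.2 CPM at ZT16 and 119.5 CPM at ZT4. Of the list of neutrophil arrival and ageing genes, 2 of 17 measured were higher and 3 lower in the Csf3r set (4.91% and 4.67% of all measured genes).

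Several genes lower in the Csf3r set alone were monocyte and macrophage genes. Ccr2, the receptor for Ccl2, had 37.5 CPM at ZT16 and 105 CPM at ZT4 in the Csf3r set, against levels of 728 CPM at ZT16 and 833 CPM at ZT4 in the Csf1r set. Ms4a6c had 46.2 CPM at ZT16 and 114 CPM at ZT4, osteopontin (Spp1) 431 CPM at ZT16 and 838 CPM at ZT4 and the lysozyme gene Lyz2 1349 CPM at ZT16 and 2323 CPM at ZT4. The adenosine receptor gene Adora2b, the protease inhibitor gene Serpinb8 and the chemokine gene Ccl5 had log2 ratios of -1.65, -1.34 and -3.82. The 11 monocyte-macrophage markers together summed to 3029 CPM at ZT16 and 4183 CPM at ZT4 in the Csf3r set, with Csf1r at 0 by the rule, and their part in these differences was not tested. At ZT4 5 barcodes held 90.8% of the Ccl5 UMIs of the set. Of the genes measured in this set alone, 16 of 120 (13.3%) were lower, among them the cytokine subunit gene Il23a with 15.2 CPM at ZT16 and 29.5 CPM at ZT4, Mrgpra2a with 9.92 CPM at ZT16 and 20.0 CPM at ZT4, 4933432I03Rik, and Cstdc5 and Csta3 of the stefin A family.

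In the Csf1r set genes of freshly recruited monocytes were lower at ZT16 and genes of resident and repair macrophages higher. Of 15 listed monocyte genes all were measured, 9 were lower past the fold (6.26% of all measured genes) and 0 higher, with a median of -1.10 log2 against -0.02 over all genes. Ly6c2, the surface antigen of inflammatory monocytes, had 93.0 CPM at ZT16 and 206 CPM at ZT4 and a log2 ratio of -1.15 (95% interval -1.20 to -1.09). Plac8 had 286 CPM at ZT16 and 613 CPM at ZT4, haptoglobin (Hp) 97.4 CPM at ZT16 and 219 CPM at ZT4 and Ifitm6 63.4 CPM at ZT16 and 197 CPM at ZT4. Ccr2 was not among the 9, with 728 CPM at ZT16 and 833 CPM at ZT4. Of 18 listed resident and repair genes, 8 were higher (4.17% of all measured genes) and 0 lower, with a median of 0.49. They were Apoe, C1qc (391 CPM at ZT16 and 256 CPM at ZT4), a complement subunit, Trem2 (365 CPM at ZT16 and 238 CPM at ZT4), a lipid receptor, the folate receptor Folr2 (72.7 CPM at ZT16 and 46.4 CPM at ZT4), Cbr2, Cd163, Lyve1 and Gas6, with log2 ratios between 0.59 and 0.88.

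The same lists were read per barcode after drawing 1000 UMIs from each barcode, since depth differed (median UMIs in the Csf1r set 13528 at ZT16 and 10075.5 at ZT4). With the set redefined on the drawn UMIs, 1440 barcodes at ZT16 and 1380 at ZT4 remained. The resident and repair list had a median of 15 UMIs per barcode at ZT16 and 9 at ZT4, and the monocyte list a median of 7 at ZT16 and 9 at ZT4. At ZT16 the middle of the barcodes ran over 6 to 27 UMIs for the resident and repair list and at ZT4 over 3.75 to 21 (25th to 75th percentile), so the distributions overlapped widely. Neutrophil markers in the Csf1r set summed to 585 CPM at ZT16 and 1304 CPM at ZT4, and their part in the lower calls of shared granule genes (S100a8 with 126 CPM at ZT16 and 388 CPM at ZT4) was not tested.

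**Figure D4:**
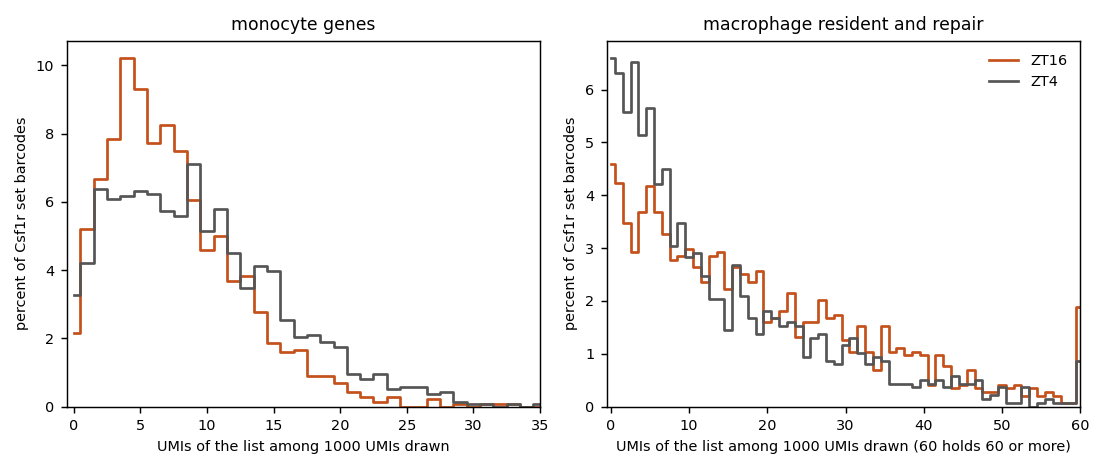
Percent of Csf1r set barcodes (vertical axis) with each number of list UMIs among 1000 UMIs drawn per barcode (horizontal axis), day 1 ZT16 in orange and ZT4 in grey. The monocyte list (left) has a median of 7 UMIs at ZT16 and 9 at ZT4, and the resident and repair list (right, the last bin holds 60 or more) a median of 15 at ZT16 and 9 at ZT4.

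Past the fold in the Csf1r set and within 0.32 of 0 on the log2 scale in both others were 17 higher genes (0.225%) and 38 lower (0.504%). Rnase4, a secreted ribonuclease, had 147 CPM at ZT16 and 87.2 CPM at ZT4, the chaperone gene Hsph1 51.7 CPM at ZT16 and 30.5 CPM at ZT4 and Klf2, a transcription factor that restrains myeloid activation, 277 CPM at ZT16 and 174 CPM at ZT4. Csrp3, Il1rl1, Hspb7, Hspb1 and Ankrd2, muscle or stress genes apart from the interleukin-33 receptor Il1rl1, rested on few barcodes: at ZT16 the top 5 held 48.6% to 78.3% of their UMIs. The log2 ratio of Hspb1 was -0.37 after thinning, and that of Ankrd2 -1.25 without likely doublets. Among the lower genes were Inhba, a subunit of activin A, with 2.53 CPM at ZT16 and 8.75 CPM at ZT4, the neutrophil chemokine gene Cxcl5 with 14.9 CPM at ZT16 and 37.2 CPM at ZT4, Slc44a2, Lrg1, Ccdc88c, the arginine-synthesis enzyme Ass1, Fam49a and the AP-1 factor Fosl1, with log2 ratios between -1.79 and -0.85. After thinning Lrg1 had a log2 ratio of 0.34. For Cxcl5 the top barcode held 34.4% of the UMIs at ZT16 and 51.4% at ZT4. Of the 1065 genes measured in the Csf1r set alone, 73 (6.85%) were higher, led by Nutf2-ps1, the lysophosphatidylserine receptor gene Gpr34 (4.45 CPM at ZT16 and 1.24 CPM at ZT4), Gm12166, Mtus2 and Lpcat4. Another 144 (13.5%) were lower, led by Serpinb2, the inhibitor of urokinase, with 3.32 CPM at ZT16 and 13.4 CPM at ZT4, Arhgef37, the cell-fusion gene Ocstamp with 1.16 CPM at ZT16 and 4.13 CPM at ZT4, Gm15964 and 1700012B09Rik.

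Cytokine genes differed in both directions in the Csf1r set. Il10, an anti-inflammatory cytokine, had 18.0 CPM at ZT16 and 9.19 CPM at ZT4 and a log2 ratio of 0.97 (95% interval 0.79 to 1.16). Vegfa, the angiogenic factor, had 36.5 CPM at ZT16 and 71.5 CPM at ZT4, and the macrophage growth factor gene Csf1 12.5 CPM at ZT16 and 34.9 CPM at ZT4. In the Csf3r set Csf1 had 859.9 CPM at ZT16 and 1076 CPM at ZT4, under 1.5-fold. Areg, an epidermal growth factor family member, had 34.9 CPM at ZT16 and 57.1 CPM at ZT4. Of 19 measured cytokine and growth factor genes, 3 were higher and 6 lower (4.17% and 6.26% of all measured genes). The chemokine genes Ccl2 and Ccl7 were the 2 of 21 listed chemokines measured that were higher, Ccl7 with 2532 CPM at ZT16 and 1596 CPM at ZT4. Another 2 chemokines were lower, against the same shares of all measured genes.

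In the Ptprc-zero set 11 genes were higher alone (0.146%) and 80 lower alone (1.06%). Id3, an inhibitor of basic helix-loop-helix factors, had 489 CPM at ZT16 and 304 CPM at ZT4, BC028528 31.4 CPM at ZT16 and 17.3 CPM at ZT4 and Hint2, a mitochondrial enzyme, 43.5 CPM at ZT16 and 27.9 CPM at ZT4. Tnf had 84.7 CPM at ZT16 and 184 CPM at ZT4 and the inflammasome gene Nlrp3 59.4 CPM at ZT16 and 125 CPM at ZT4. Ccrl2, Ccl4, Ptafr, B430306N03Rik and Bcl2a1a, which myeloid cells express, were lower too, with log2 ratios between -1.13 and -0.86. Neutrophil markers in this set were at 3945 CPM at ZT16 and 7808 CPM at ZT4, and in the stricter non-immune subset, where both genes had under 100 UMIs, the log2 ratio of Tnf was 0.44 and that of Ccrl2 0.03. Col3a1, a fibrillar collagen of fibro-adipogenic cells, had 374 CPM at ZT16 and 710.1 CPM at ZT4. Of 22 matrix genes 9 were lower in this set (7.47% of all measured genes) and 1 higher (4.56%). Fibro-adipogenic markers summed to 1666 CPM at ZT16 and 2781 CPM at ZT4 in the set. Barcodes with at least 3 UMIs of these markers were 241 of 2393 at ZT16 (10.1%, exact 95% interval 8.89% to 11.3%) and 136 of 1828 at ZT4 (7.44%, 6.28% to 8.74%), so the lower sum went with a larger share of such barcodes. Their part in the matrix genes was not tested.

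Of the 839 genes measured in the Ptprc-zero set alone, 113 (13.5%) were higher and 85 (10.1%) lower. Timp4, an inhibitor of metalloproteinases, had 33.0 CPM at ZT16 and 4.93 CPM at ZT4, with UMIs in 150 barcodes at ZT16 and 27 at ZT4. The mast cell protease gene Mcpt4 rested on 1 barcode, with 108 of its 109 UMIs at ZT16, and Angptl7 on 5 barcodes. Ptn, a heparin-binding growth factor, had 8.49 CPM at ZT16 and 0.767 CPM at ZT4. The slow-fibre genes Tnni1 and Tnnc1, with Myl10, Sln and the acute-phase gene Saa1, were lower. Tnni1 had 0 UMIs at ZT16 and 102 at ZT4 in 5 barcodes, and the 275 UMIs of Myl10 at ZT4 lay in 2 barcodes.

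Per2 was low in these cells and was past the fold in the Csf1r set, with 3.70 CPM at ZT16 and 1.02 CPM at ZT4 and a log2 ratio of 1.85 (95% interval 1.35 to 2.41), and in the Ptprc-zero set, with 6.76 CPM at ZT16 and 2.63 CPM at ZT4 and 1.34 (95% interval 0.71 to 2.07). In the Csf3r set it had 7.96 CPM at ZT16 and 8.15 CPM at ZT4. Dbp had 6.42 CPM at ZT16 and 3.85 CPM at ZT4 in the Csf1r set and 34.0 CPM at ZT16 and 22.1 CPM at ZT4 in the Ptprc-zero set, both past the fold. Nr1d1 was lower in the Csf1r set, with 1.67 CPM at ZT16 and 2.81 CPM at ZT4, and had 17.1 CPM at ZT16 and 24.0 CPM at ZT4 in the Ptprc-zero set, under the fold. Nr1d2 and the receptor gene Rora were lower in the Csf1r set too, with -0.69 and -0.73 log2. Per1, Per3, Cry1, Cry2, Tef, Nfil3 and Bhlhe40 were within 1.5-fold in each set where they were measured, and so were the activators: Clock had 24.4 CPM at ZT16 and 26.4 CPM at ZT4 in the Csf1r set and Arntl 4.27 CPM at ZT16 and 4.57 CPM at ZT4. In the Csf3r set 0 of 8 measured clock genes were past the fold, where 4.91% of all measured genes were higher and 4.67% lower. Whether Per2 differed between the Csf3r set and the others was not tested, and its interval in the Csf3r set, -0.53 to 0.45, did not overlap the others.

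Glucocorticoid-responsive genes were mixed. Tsc22d3, which encodes GILZ, had 159.6 CPM at ZT16 and 97.4 CPM at ZT4 in the Csf3r set and 69.9 CPM at ZT16 and 43.8 CPM at ZT4 in the Csf1r set, past the fold in both, and 76.7 CPM at ZT16 and 52.3 CPM at ZT4 in the Ptprc-zero set, under it. Fkbp5, a co-chaperone of the glucocorticoid receptor, was within the fold in each set (0.33, 0.36 and 0.12). Of 21 listed genes, 2 of 15 measured were higher and 2 lower in the Csf3r set, 2 of 17 higher and 3 lower in the Csf1r set, and 2 of 18 higher and 2 lower in the Ptprc-zero set. Over all measured genes 4.91%, 4.17% and 4.56% were higher and 4.67%, 6.26% and 7.47% lower in these sets.

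Genes of DNA replication were higher at ZT16 in the Csf3r set and chaperone genes in the Csf1r set, each in part. Of 14 S phase genes measured in the Csf3r set 6 were higher and 0 lower, of 20 in the Csf1r set 1, and of 20 in the Ptprc-zero set 0. How far the 6 in the Csf3r set rest on few barcodes is not reported here. Over all measured genes 4.91%, 4.17% and 4.56% were higher in the Csf3r, Csf1r and Ptprc-zero sets, and 4.67% were lower in the Csf3r set. Of 7 G2M genes measured in the Csf3r set 5 were higher, among them Cks2 with 419 CPM at ZT16 and 253 CPM at ZT4 and Birc5 (survivin) with 12.5 CPM at ZT16 and 5.26 CPM at ZT4, and Mki67 was lower with 8.07 CPM at ZT16 and 12.7 CPM at ZT4. Cdk1, also of this list, had many of its ZT16 UMIs in 1 barcode of the set, as given above. With at least 2 UMIs of the gate gene Top2a had a log2 ratio of -0.00448 in the Csf3r set, so its direction turned. Of 15 heat shock genes 1, 5 and 2 were higher in the Csf3r, Csf1r and Ptprc-zero sets and 0 lower, where 4.91%, 4.17% and 4.56% of all measured genes were higher. Hspa8, the constitutive heat shock cognate protein, had 2717 CPM at ZT16 and 1759 CPM at ZT4 in the Csf1r set. Hspe1, a mitochondrial chaperonin, was past the fold in all 3 sets (0.67, 0.75 and 0.70), and so was Sdf2l1, of the chaperone network of the endoplasmic reticulum (0.69, 1.06 and 1.11). None of 26 listed ribosomal protein genes was past the fold in any set, but Rpl35, outside the list and named after its values were seen, was lower in all 3 (-0.65, -0.73 and -0.60). Of the 6 listed sex-linked genes 4 were measured, and 0 were past the fold in any set. Gm47283, annotated on chromosome Y and higher in all 3 sets, is not in that list. Xist had 1 UMI at ZT16 and 0 at ZT4 in the Csf3r set and 0 in the others.

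**Figure D5:**
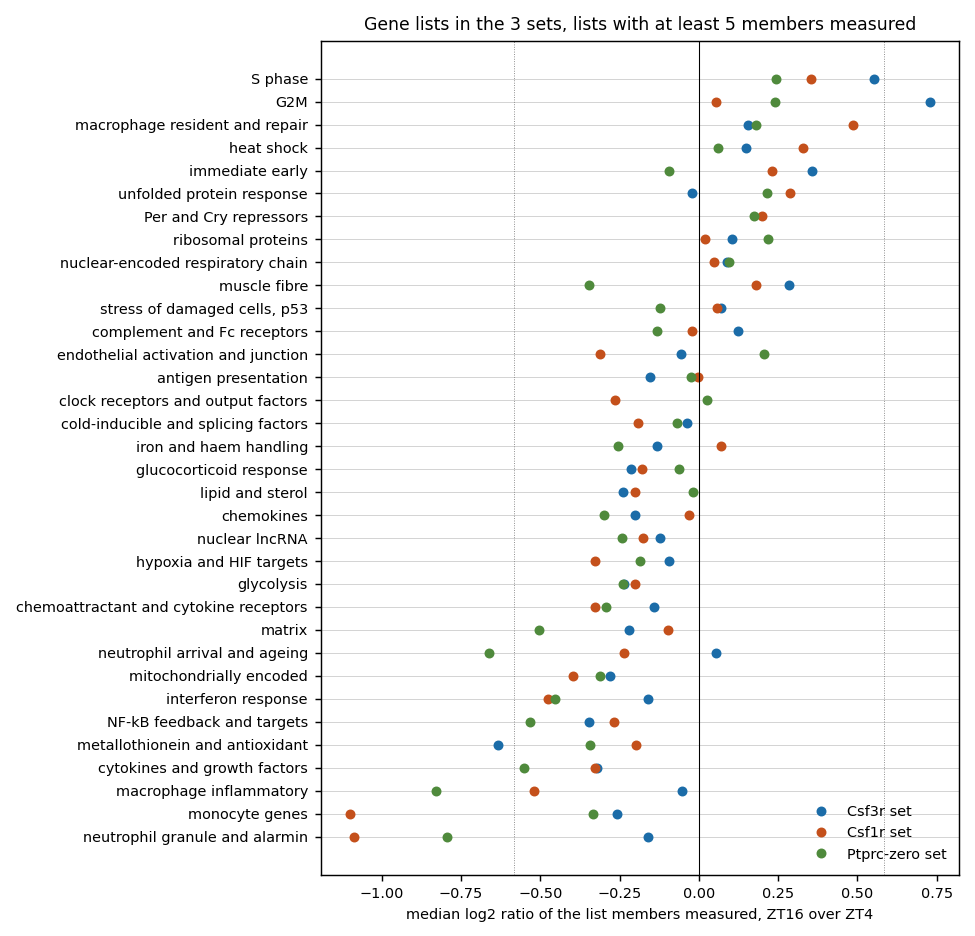
Median log2 ratio (horizontal axis, ZT16 over ZT4) of the measured members of each gene list in the Csf3r set (blue), the Csf1r set (orange) and the Ptprc-zero set (green), for lists with at least 5 members measured. Monocyte and neutrophil granule genes lie farthest to the left in the Csf1r set, and G2M genes farthest to the right in the Csf3r set, while ribosomal and respiratory chain genes lie near 0.

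The share of kept barcodes in each set also differed between the libraries. The Csf3r set was 26.3% of kept barcodes at ZT16 (exact 95% interval 25.5% to 27.1%) and 29.3% at ZT4 (28.5% to 30.2%). The Csf1r set was 33.2% at ZT16 (32.3% to 34.1%) and 31.0% at ZT4 (30.2% to 31.9%), and the Ptprc-zero set 21.3% at ZT16 (20.5% to 22.1%) and 16.6% at ZT4 (15.9% to 17.4%). The sets depend on depth, because a barcode enters or leaves them by single UMIs, and the sort and capture also set these shares. Ptprc itself was lower at ZT16, with 228 CPM at ZT16 and 395 CPM at ZT4 in the Csf1r set and 357 CPM at ZT16 and 572 CPM at ZT4 over all kept barcodes, and its part in the share of the Ptprc-zero set was not tested. With every barcode thinned to 1000 UMIs the log2 ratio of the shares was -0.07 for the Csf3r set, against -0.16 unthinned, and 0.24 for the Ptprc-zero set, against 0.36 unthinned.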

How the data were processed

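The deposited matrices hold raw UMI counts per gene and barcode, made by the authors with Cell Ranger, version 6.1.2 per the file headers and 1.0.0 per the submitters' processing notes, which name mm10. Barcodes with at least 500 UMIs, 200 genes and at most 10% mitochondrial UMIs were kept, 11233 at ZT16 and 10984 at ZT4. UMIs were summed over each set and divided by the set's total. Log2 ratios used 0.5 added UMIs, with exact conditional binomial 95% intervals, which cover counting error only. With 1 library per group no test across libraries was made. Genes needed 100 UMIs over both libraries. The ratio and interval steps were tested on simulated sums that carried counting error only, without a spread between barcodes.

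Named genes were the 15 higher and 15 lower in all 3 sets whose nearer interval limit, at its smallest over the sets, lay farthest from 0, the 8 higher and 8 lower in each set alone with separate intervals, the 5 each way measured in 1 set only, 8 opposite genes and members of 37 lists. Other genes shared by all 3 sets that are named outside these were chosen after their values were seen. Some genes that the rule names are not reported here. The sets and lists were chosen with earlier results of these data known.

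Doublets stayed in. Scrublet (scanpy 1.11.5) called 3.12% of barcodes at ZT16 and 1.79% at ZT4. An alternative left out the 1009 and 965 barcodes of highest score at ZT16 and ZT4. Other alternatives changed the UMI minimum, the fold, the scaling, the barcode filters and the gates, thinned barcodes to 1000 UMIs, or subtracted free RNA. Coordinates came from GENCODE vM21 and promoters from RefSeq (GRCm38.p6). Python 3.11.15, numpy 2.4.6, scipy 1.17.1 and pandas 2.3.3 were used.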

Additional observations from a re-analysis of the deposited data

Results flagged for a closer look

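A total of 33 genes were past 1.5-fold in opposite directions in 2 sets, and the 8 most opposed are given with their log2 ratios (ZT16 over ZT4). None of these differences was tested, since each group is 1 library. Apod, an apolipoprotein of fibroblasts, had 1.91 in the Csf1r set, where 1 barcode held 89.6% of its UMIs at ZT16, and -2.25 in the Ptprc-zero set, a difference of 4.16. Without likely doublets it had -2.06 in the Csf1r set, so the opposition was gone. Tagln, a smooth muscle protein, had 3.40 in the Csf1r set and -0.90 in the Csf3r set, a difference of 4.31. Without likely doublets it had 0.47 in the Csf3r set, and the opposition was gone there too. Rgs5, a pericyte gene, had 0.93 in the Csf1r set and -1.19 in the Csf3r set, a difference of 2.13. The muscle gene Klhl40 had 1.11 in the Csf1r set and -0.97 in the Csf3r set, a difference of 2.08. It had 0.25 in the Csf3r set with at least 2 UMIs of the gate gene and 0.57 there with the mean CPM per barcode, neither opposed. The long non-coding RNA Meg3 had 0.91 in the Csf1r set and -0.96 in the Csf3r set, a difference of 1.87. Sbsn had 1.32 in the Ptprc-zero set and -1.08 in the Csf1r set, a difference of 2.40. Tspan13 had 0.81 in the Ptprc-zero set and -1.26 in the Csf1r set, a difference of 2.07. Lbp, which encodes lipopolysaccharide-binding protein, had 1.06 in the Csf3r set and -0.87 in the Ptprc-zero set, a difference of 1.92.

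In the Csf1r set 4 of the named shared genes had the opposite direction on another day, again without a test. Acod1 had a log2 ratio of 0.85 on day 3 and -2.71 on day 1. Il1rn had 0.96 on day 0 and -0.76 on day 1. The globin genes Hba-a2 and Hba-a1 had -7.00 and -6.82 on day 0, against 4.26 for Hba-a2 and 4.58 for Hba-a1 on day 1.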

How the results depend on the processing

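No paired analysis was possible because each group is 1 library. The counts were 74 genes higher and 68 lower in all 3 sets, and 151, 55 and 91 in the Csf3r, Csf1r and Ptprc-zero sets alone. In that order they were 115, 119, 355, 125 and 159 with a minimum of 30 UMIs per gene, 34, 38, 62, 21 and 51 with a minimum of 300, and 9, 8, 16, 10 and 6 at 2-fold, as fewer or more genes qualify. Thinned to 1000 UMIs, the counts were 21 higher, 44 lower, 45 in the Csf3r set and 8 in the Ptprc-zero set. The Ptprc-zero count was 227 with Ptprc, Csf3r and Csf1r all 0 and 204 with the mean CPM per barcode, and the shared lower count was 24 with non-immune markers required as well. The log2 ratio of the share of barcodes was -0.16, 0.10 and 0.36 for the 3 sets. It was -0.0687 (Csf3r) and 0.24 (Ptprc-zero) after thinning, -0.0664 (Csf3r) and 0.25 (Csf1r) with at least 2 UMIs of the gate gene, 0.50 (Ptprc-zero) with all 3 gate genes at 0 and 0.71 with non-immune markers. The cause of these changes was not tested.

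Many gene values were classed as moved, which means that they changed. A turn of direction was counted only for values past 1.5-fold, so smaller values classed as moved or the same can include turns. After thinning 283 values moved, 160 stayed the same, 5 turned and 78 could not be given. With the mean CPM per barcode 222 moved, 302 stayed the same and 2 turned. Among values past 1.5-fold the direction turned in these cases. After thinning Hba-a2 was -0.48, Hba-a1 -0.38 and Hbb-bs -1.44 in the Csf3r set, and Hspb1 -0.37 and Lrg1 0.34 in the Csf1r set. In the non-immune subset of the Ptprc-zero set Traf1 was 0.21, Ccrl2 0.0327, Tnf 0.44, S100a9 0.19 and Cxcl2 0.36. With 2 UMIs of the gate gene Klhl40 was 0.25 and Top2a -0.00448 in the Csf3r set. Without likely doublets Igkc was -2.63 and Tagln 0.47 in the Csf3r set, Ankrd2 -1.25 and Apod -2.06 in the Csf1r set, and Hba-a2 -2.87, Hba-a1 -2.47 and Hbb-bs -1.77 in the Ptprc-zero set. With the mean CPM per barcode Klhl40 was 0.57 and Pdgfra 0.00362 in the Csf3r set. Among the 526 gene values, centring, totals without the 50 most abundant genes and a minimum of 1000 UMIs turned none that was past 1.5-fold. Neither did a 5% mitochondrial limit, leaving out shared barcodes or subtracting free RNA. Thinning left 3171 genes measured in place of 7539, and median UMIs per barcode were lowest in the Csf3r set, at 2494.5 at ZT16 and 2375 at ZT4.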
